A study of Mus musculus with 6 samples.

Results

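Potassium channel genes were taken as the protein-coding genes whose symbol begins with Kcn, which gave 94 of the 18058 protein-coding genes, and of 30821 genes in all, with a count in at least 1 library. The libraries held hippocampal RNA of 6 male C57BL/6J mice, each mouse giving 1 library. All had been injected at 8 weeks of age into the CA1 field of both hippocampi, and the label gives 31 days. In 3 mice (TAF15 OE) the adeno-associated virus carried TAF15, an RNA-binding protein, under a CaMKIIα promoter, which is active mainly in excitatory neurons. The other 3 (Control) had received a control virus, so both groups had been through surgery and carried a virus. Virus was placed in CA1 only, while the label of the sequenced tissue is hippocampus, and the inserted sequence is not given in the sources used here. Total counts ran from 14965464 to 16067000 per library. The hippocampal labels were matched by the marker genes: the 8 CA1, 8 dentate granule and 7 CA3 markers found in the files were above 0 in every library. Taf15 itself had 908, 958 and 795 counts in Control 1 to 3 against 3897, 3661 and 4477 in TAF15 OE 1 to 3. Control 1 and TAF15 OE 1 stood apart in the choroid plexus transcript Ttr, at 89.1 and 1354 CPM (counts scaled to a common library total), against 3832 to 4468 in the other 4 libraries.

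Potassium channels let potassium leave or enter the cell and so set the resting potential, shape the action potential and fix how often a neuron fires. Voltage-gated (Kv) alpha subunits form the pore that opens on depolarisation, and silent Kv subunits only modify other Kv pores. Inward rectifiers (Kir) and tandem pore-domain leak channels (K2P) hold the membrane near rest, and in astrocytes they clear the potassium that firing neurons release. Calcium- or sodium-activated channels end bursts of firing. Auxiliary subunits, among them the Kv beta and the KChIP proteins, bring pores to the membrane and change their gating. In hippocampal pyramidal neurons the A-type current of dendrites is carried largely by Kcnd2 (Kv4.2) with KChIP and DPP partners.

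Of the 94 genes, 78 had enough counts to be tested (at least about 10 counts in 3 libraries). By edgeR's quasi-likelihood test, with p adjusted by the Benjamini-Hochberg method over the 16758 genes tested and called at an adjusted p below 0.05, 21 of the 78 were called. In TAF15 OE 8 of them rose and 13 fell. That was 26.9% of the channel genes tested, where 15.3% of all tested genes were called. The share that fell was 16.7%, where 5.95% of all tested genes fell, and the share that rose was 10.3%, close to the 9.32% of all tested genes. The median log2 change (log2 of TAF15 OE over Control) of the 78 was -0.05, where that of all tested genes was 0.03. The groups did not overlap in 27 of the 78, a share of 34.6%, as in 34.6% of all tested genes. Which way the calls leaned depended on the scaling of the libraries: 38.1% of the channel calls were higher with TMM scaling, 27.8% with DESeq2 size factors (5 higher, 13 lower) and 52.6% with total counts (10 higher, 9 lower). On FPKM (fragments relative to gene length and sequencing depth) with a pseudocount of 1, 8 rose and 8 fell. There were 9 calls without TAF15 OE 2, 11 without Control 1 and 11 without Control 3. Leaving out Control 1 together with TAF15 OE 1 gave 21, of which 16 were among the 21 of all libraries. A value in brackets after a setting or a library left out is the adjusted p found there.

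**Figure D1:**
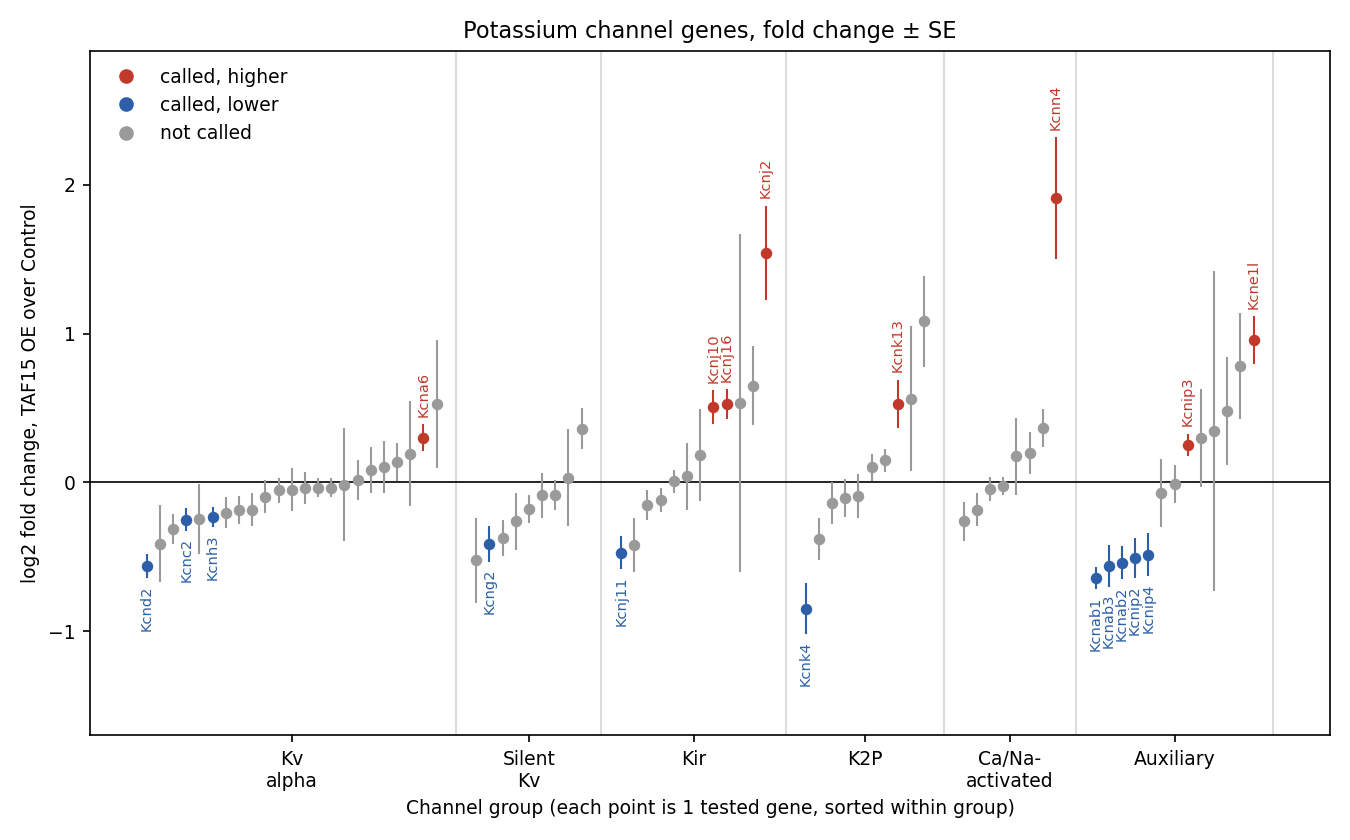
Log2 fold change (TAF15 OE over Control) ± SE of 75 of the tested potassium channel genes, by channel group, with called genes in red (8 higher) and blue (11 lower). The calls among Kv alpha genes lie mostly below 0, and both directions appear among the Kir and auxiliary genes.

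By group, the calls were 6 of 26 tested Kv alpha genes (1 higher, 5 lower), 1 of 9 silent Kv genes (lower), 4 of 12 Kir genes (3 higher, 1 lower), 2 of 10 K2P genes (1 in each direction), 1 of 8 calcium- or sodium-activated genes (higher) and 7 of 13 auxiliary genes (2 higher, 5 lower). The pore-forming genes together gave 14 calls of 65. Groups are small, and differences between them were not tested. Of the 16 genes not tested, none had more than 18 counts in any library. Among these Kcna7, a muscle Kv subunit chosen here after its values were seen, had 0 counts in all Control libraries and 6, 4 and 1 in TAF15 OE 1, 2 and 3.

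The promoters of a pair of called genes from each direction show what the windows of these genes look like. Kcnd2 and its partner Kcnip2 fell, Kcnj10 and Kcnj2 rose, and each has a single start listed in RefSeq. The 250 bases before the start are given 5′ to 3′ on the gene's strand (RefSeq, GRCm38.p6), in lower case with motif matches in capitals.
Kcnd2 (chr6:21215096-21215345, plus strand): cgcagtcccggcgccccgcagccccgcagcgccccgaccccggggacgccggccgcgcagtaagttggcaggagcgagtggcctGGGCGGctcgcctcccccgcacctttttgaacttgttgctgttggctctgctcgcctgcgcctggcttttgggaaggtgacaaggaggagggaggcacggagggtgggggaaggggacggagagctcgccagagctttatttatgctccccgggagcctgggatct
Kcnip2 (chr19:45816064-45816313, minus strand): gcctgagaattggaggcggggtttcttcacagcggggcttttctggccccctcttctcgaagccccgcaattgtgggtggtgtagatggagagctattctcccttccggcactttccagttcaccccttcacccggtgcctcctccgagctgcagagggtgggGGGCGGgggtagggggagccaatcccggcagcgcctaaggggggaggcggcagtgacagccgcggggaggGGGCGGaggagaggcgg
Kcnj10 (chr1:172340960-172341209, plus strand): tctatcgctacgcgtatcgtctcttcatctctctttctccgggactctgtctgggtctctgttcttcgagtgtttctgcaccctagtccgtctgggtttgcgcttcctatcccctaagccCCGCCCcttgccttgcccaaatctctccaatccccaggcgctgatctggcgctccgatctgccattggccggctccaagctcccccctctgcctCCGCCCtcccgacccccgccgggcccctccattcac
Kcnj2 (chr11:111065914-111066163, plus strand): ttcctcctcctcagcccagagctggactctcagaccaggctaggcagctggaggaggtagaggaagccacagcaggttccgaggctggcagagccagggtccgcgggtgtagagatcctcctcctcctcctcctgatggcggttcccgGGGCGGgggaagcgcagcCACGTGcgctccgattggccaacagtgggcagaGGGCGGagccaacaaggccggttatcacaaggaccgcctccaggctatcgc
Both strands were searched for 4 motifs: the cyclic AMP response element TGACGTCA, the E-box CACGTG, the GC box GGGCGG (on the other strand CCGCCC) and the TATA box TATAAA, where matches may overlap. RefSeq windows were found for 56 of the 78 tested genes, 80 windows in all. The GC box was in 46.2% of these windows and in 32.7% of all 32851 windows, and the TATA box in 3.75% and 12.4%. The E-box was in 7.5% of the channel windows and 6.02% of all windows, and here appears in Kcnj2 alone of the 4 shown. No channel window held the cyclic AMP response element, which 1.55% of all windows held. Counted by gene, 6 of 8 higher and 6 of the 7 lower genes with a window carried the GC box, beside 36 of all 56. Counted by window, as in the shares above, it was in 6 of 13 windows of higher genes and 6 of 15 of lower genes.

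All 3 Kv beta genes fell, among them Kcnab2, the most abundant channel transcript. Kv beta proteins are cytoplasmic partners of Kv1 pores that resemble oxidoreductases and aid transport to axons, and some of them speed inactivation. Kcnab2 had the highest level of the tested channel genes, 159 ± 19.2 FPKM in Control against 113 ± 11.6 with TAF15 OE (mean ± SD, n = 3 mice per group, as for all levels here). In CPM, which compares libraries but not genes, Kcnab2 stood at 1044, 809 and 847 in Control 1 to 3 against at 697, 603 and 557 in TAF15 OE 1 to 3. The highest TAF15 OE value lay below the lowest Control value, and it fell 1.45-fold (log2 change -0.54 with SE 0.112, adjusted p 0.0120). Kcnab1 had 154, 139.6 and 136 CPM in the Control libraries and 86.6, 95.0 and 92.6 in the TAF15 OE libraries. With the narrow spread within both groups it had the smallest p of the 94 genes, falling 1.56-fold (log2 change -0.65 with SE 0.0739, adjusted p 5.50e-04). Kcnab3, the least abundant of the 3 (6.31 ± 0.302 FPKM in Control), went from 18.03, 19.1 and 18.02 CPM to 9.89, 14.0 and 13.5. Its lowest value was in TAF15 OE 1, and it fell by 0.56 in log2 (SE 0.141, adjusted p 0.0217). The call of Kcnab2 was lost without TAF15 OE 2 (adjusted p 0.0531) and that of Kcnab3 without Control 1, 2 or 3 (0.0534, 0.0762 and 0.0572). Kcnab2 overlaps Nphp4 on the other strand, and as the strand setting of the counting was not given, reads of the overlap could not be told apart.

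Of the 6 tested Kv1 pore genes, whose products join the Kv beta subunits, 1 was called, and the log2 changes of the 6 ran from -0.10 to 0.30. Kcna1 and Kcna2, the axonal Kv1.1 and Kv1.2, stood at 20.1 ± 1.91 and 16.5 ± 1.18 FPKM in Control against 19.4 ± 2.43 and 16.4 ± 1.17 in TAF15 OE. Their log2 changes were -0.10 (SE 0.112, adjusted p 0.619) and -0.05 (SE 0.0835, adjusted p 0.735), and the groups overlapped in both. Both were chosen after their values were seen, and the difference between pore and beta subunit changes was not tested. Kcna6 (Kv1.6) was the only called Kv1 gene of 6 tested, with 46.4, 49.9 and 44.7 CPM in the Control mice against 64.2, 56.0 and 53.4 after TAF15 OE. It rose 1.23-fold (log2 change 0.30 with SE 0.0892, adjusted p 0.0428). That call was lost with DESeq2 size factors (0.0640), with DESeq2 (0.0728), without Control 1, 2 or 3 (0.114, 0.0632 and 0.137), without TAF15 OE 2 (0.117) and without TAF15 OE 1 (0.175, log2 change 0.19). It was also lost with Control 1 and TAF15 OE 1 both left out (0.249, log2 change 0.18).

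Of the A-type Kv4 channel genes, 1 of 3 Kcnd pores fell (Kcnd2), and of 4 KChIP genes 2 fell (Kcnip2 and Kcnip4) and 1 rose (Kcnip3). The DPP partner Dpp6 fell, and Dpp10 was not called. Kcnd2 had 142, 120.5 and 135 CPM in Control 1 to 3 against 89.1, 84.5 and 95.6 in TAF15 OE 1 to 3, with no overlap. It fell 1.48-fold (log2 change -0.57 with SE 0.0807, adjusted p 0.00162). Kcnip2, encoding the calcium-binding partner KChIP2, was the second most abundant tested channel gene at 63.6 ± 3.96 FPKM in Control against 46.1 ± 8.53 with TAF15 OE. Its CPM were 239.7, 227 and 208 in the Control mice against 191, 154 and 129 after TAF15 OE, widely spread in the latter, and it fell 1.42-fold (log2 change -0.51 with SE 0.133, adjusted p 0.0378). Kcnip4 (KChIP4), which slows inactivation, had 35.1, 30.6 and 28.1 CPM in Control against 17.5, 25.9 and 23.6. It fell by 0.49 in log2 (SE 0.144, adjusted p 0.0456), furthest in TAF15 OE 1. Kcnip4, with 275 to 518 counts per library, overlaps 5730480H06Rik on the other strand, which had up to 175. Reads of that overlap could not be told apart. Dpp6, the transmembrane partner that speeds Kv4 gating, fell by 0.43 (SE 0.0654, adjusted p 0.00218). Its relative Dpp10, chosen after its values were seen, had 38.4, 43.2 and 42.1 CPM in the Control mice against 38.8, 54.6 and 56.2 after TAF15 OE (log2 change 0.27 with SE 0.133, adjusted p 0.205).

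Kcnd3 (Kv4.3), of interneurons and granule cells among others and chosen after its values were seen, stood at 11.3 ± 0.136 FPKM in Control against 11.4 ± 0.185 with TAF15 OE (log2 change -0.04 with SE 0.0634, adjusted p 0.753). Kcnip3, which encodes KChIP3, a protein also called DREAM or calsenilin that can act in the nucleus as a calcium-sensing repressor, had 101, 92.7 and 89.5 CPM in the Control mice against 118, 114 and 106 after TAF15 OE. It rose 1.19-fold (log2 change 0.25 with SE 0.0745, adjusted p 0.0426). The calls of Kcnd2 and Dpp6 held under each of the 16 alternatives, while that of Kcnip2 was lost without Control 1, 2 or 3 or TAF15 OE 2 (0.122, 0.125, 0.0617 and 0.123). Kcnip3 was not called with DESeq2 size factors (0.0701), DESeq2 (0.0768) or no filter (0.0599), nor without Control 2, Control 3, TAF15 OE 1, TAF15 OE 2, or Control 1 and TAF15 OE 1 both (0.120, 0.149, 0.146, 0.176 and 0.0707). Kcnip4 was not called with total counts (0.0690), the replicate block (0.0604) or FPKM (0.0970 and 0.0977), nor without Control 1, 2 or 3, TAF15 OE 1 or TAF15 OE 3 (0.149, 0.116, 0.0616, 0.0595 and 0.0731), nor without both Control 1 and TAF15 OE 1 (0.140, log2 change -0.27).

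**Figure D2:**
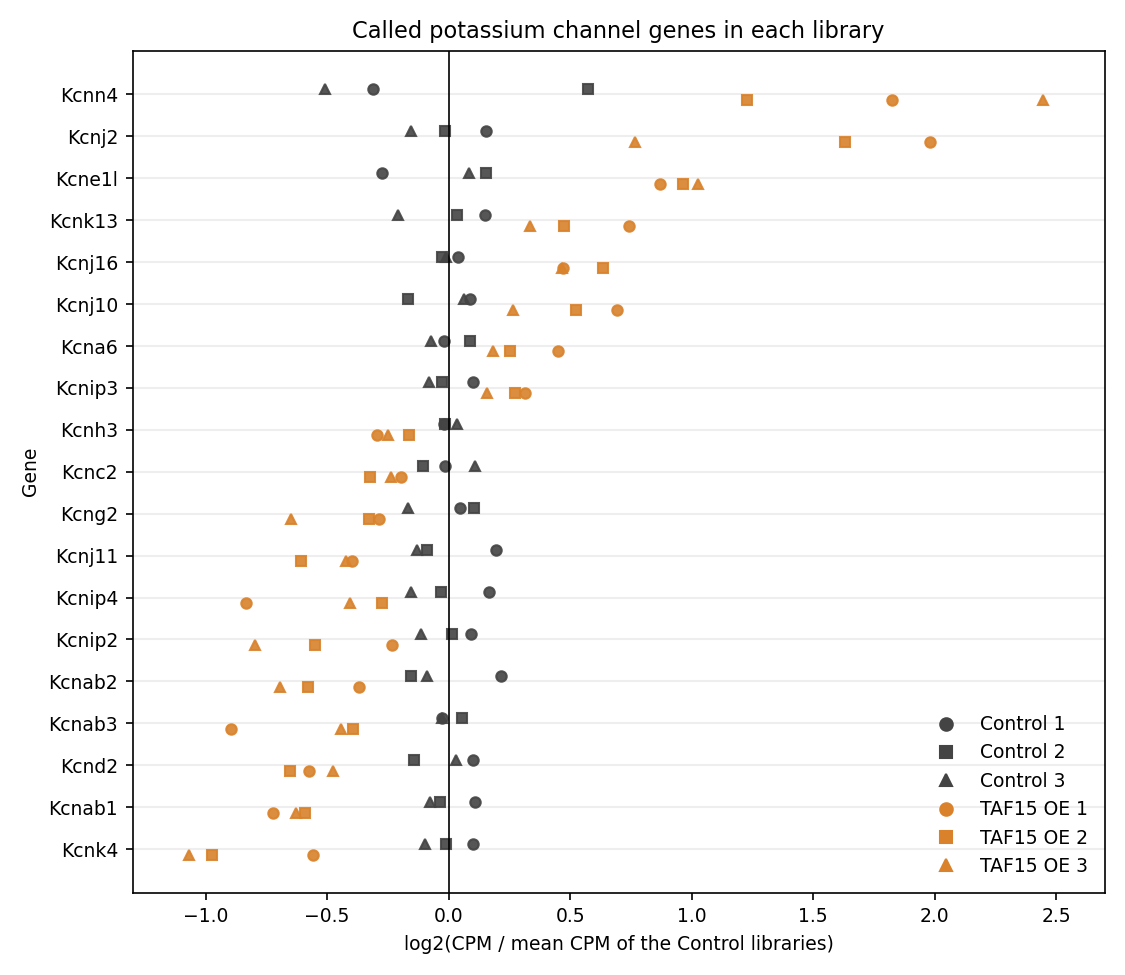
Each library's CPM of 19 of the called channel genes, as log2 of the ratio to the mean of the Control libraries; each row is a gene, grey symbols are Control and orange symbols TAF15 OE libraries. No TAF15 OE library lies within the Control range in any row, and Kcnj2 and Kcnn4 spread most among the TAF15 OE libraries.

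Of the 4 tested Kcnc genes, the fast-spiking Kv3 family, 2 fell, and of the 7 tested Kcnh genes of the ether-a-go-go branch 1 fell. Kcnc2 (Kv3.2), a subunit of fast-spiking interneurons, went from 115, 108 and 125 CPM to 101, 92.4 and 98.1, and fell by 0.25 in log2 (SE 0.0749, adjusted p 0.0438). Kcnc2 was not called with total counts (0.0830), limma-voom (0.0516) or FPKM (0.124 with either pseudocount), nor without Control 1, Control 3, TAF15 OE 2 or TAF15 OE 3 (0.0938, 0.152, 0.153 and 0.0857).

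Kcnq3 (Kv7.3), a low-threshold Kv subunit chosen after its values were seen, had 255, 199.9 and 243 CPM in the Control mice against 205, 171 and 186 after TAF15 OE, with overlap. The log2 change of Kcnq3 was -0.31 (SE 0.0991) and did not pass (adjusted p 0.0567). It passed with DESeq2 (0.0159), no filter (2.88e-04) and the replicate block (0.00456), and without Control 2 (0.0222), TAF15 OE 1 (0.0194) or Control 1 and TAF15 OE 1 both (0.0330). Kcnh3 (Kv12.2), a forebrain channel active near rest, had 110.1, 110.4 and 114 CPM in the Control mice against 91.0, 99.6 and 93.8 after TAF15 OE, and fell by 0.23 in log2 (SE 0.0663, adjusted p 0.0349). Kcnh3 was not called when any library was left out (0.0541 to 0.103), with total counts (0.0836), on FPKM (0.0957 with either pseudocount) or without both Control 1 and TAF15 OE 1 (0.0691).

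Of the silent subunits, Kcng2 (Kv6.2) fell and Kcnf1 (Kv5.1), the most abundant, did not pass. Kcng2 had 29.6, 30.7 and 25.5 CPM in the Control mice against 23.5, 22.8 and 18.2 after TAF15 OE, a log2 change of -0.41 (SE 0.120, adjusted p 0.0404). Kcnf1 had 74.3, 90.2 and 84.4 CPM against 55.1, 62.0 and 90.5, so that TAF15 OE 3 alone lay at the Control level (log2 change -0.26 with SE 0.192, adjusted p 0.435). Without TAF15 OE 3, Kcnf1 had a log2 change of -0.51 (0.0112), and it was also called with no filter (0.0197). Kcng2 was not called with total counts (0.0607), on FPKM (0.0785 and 0.0778), or without Control 1, Control 2, TAF15 OE 2 or TAF15 OE 3 (0.115, 0.144, 0.0848 and 0.128).

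**Figure D3:**
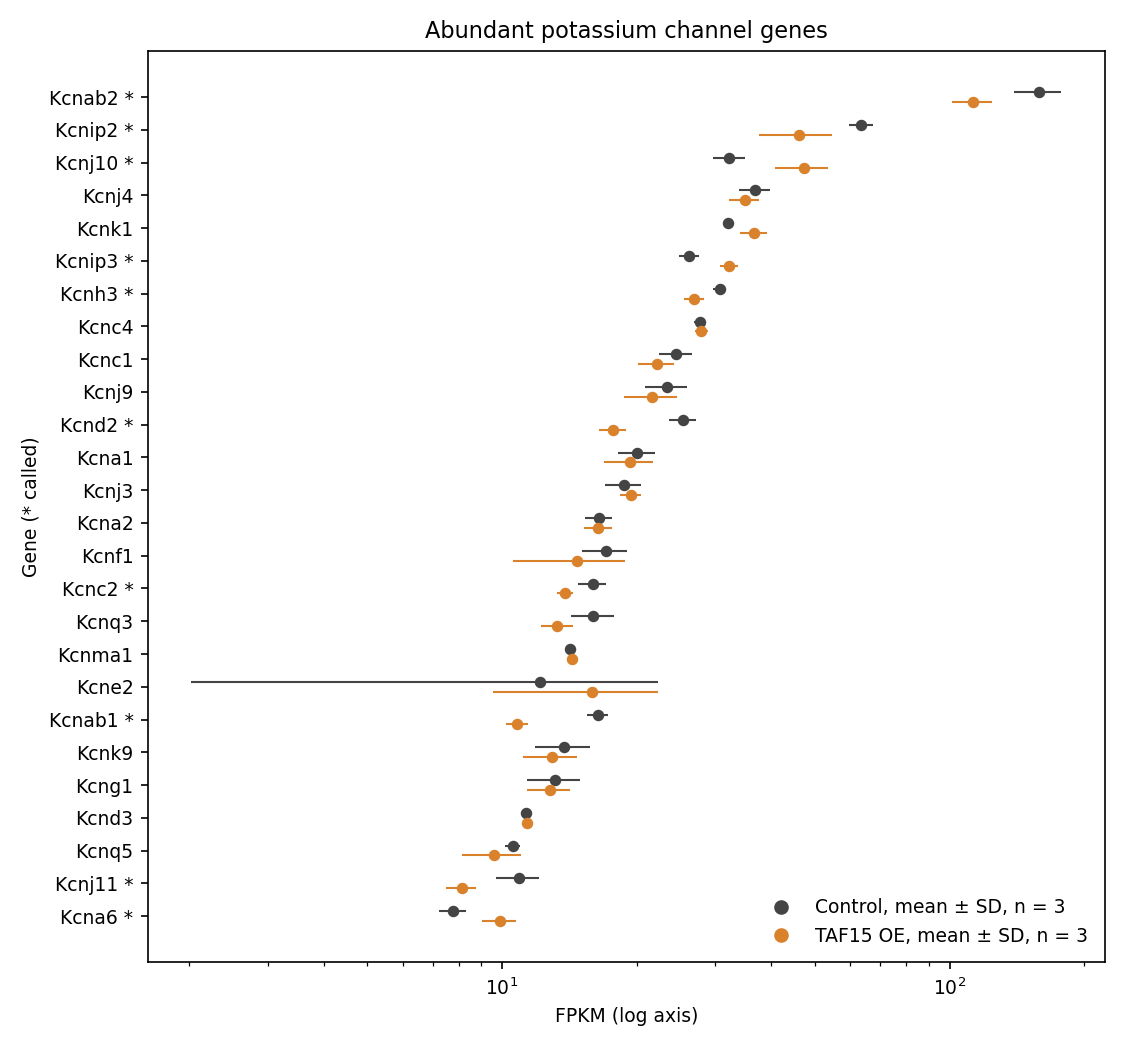
FPKM on a log axis (mean ± SD, n = 3) of abundant tested channel genes, ordered by the mean over the 6 libraries, Control in grey and TAF15 OE in orange; an asterisk marks a called gene. Kcnab2 and Kcnip2 lead, both lower in TAF15 OE, and Kcnj10 is the most abundant gene that rose.

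Inward rectifiers went both ways. Kcnj10 and Kcnj16 (Kir4.1 and Kir5.1), which pair in astrocytes to take up potassium, rose by similar amounts. Kcnj10 had 189, 158 and 185 CPM in the Control mice against 287, 255 and 213 after TAF15 OE, rising 1.42-fold (log2 change 0.51 with SE 0.112, adjusted p 0.0161). For Kcnj16 the values were 18.8, 17.9 and 18.2 CPM against 25.4, 28.4 and 25.3, a 1.44-fold rise with little spread (log2 change 0.53 with SE 0.0987, adjusted p 0.00574). Kcnj2 (Kir2.1), a strong rectifier of neurons, endothelium and microglia, lies next to Kcnj16 on chromosome 11 (111066164 to 111076821, after Kcnj16 at 110968033 to 111027968, both plus strand, GRCm38). It had 12.2, 10.9 and 9.84 CPM in the Control mice against 43.2, 34.0 and 18.7 after TAF15 OE, so all 3 rose but unequally, by 2.91-fold in the fit (log2 change 1.54 with SE 0.317, adjusted p 0.0269). The call of Kcnj10 was lost without Control 2 (0.0628) or TAF15 OE 2 (0.0732). Kcnj2 was not called with limma-voom (0.0798) or without Control 1, 2 or 3 or TAF15 OE 2 (0.0947, 0.0954, 0.0824 and 0.0875).

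Kcnj11 (Kir6.2), the pore of the neuronal ATP-sensitive channel that opens when cellular energy is low, fell with its regulatory subunit. It had 46.7, 38.3 and 37.3 CPM in the Control mice against 31.0, 26.8 and 30.4 after TAF15 OE (log2 change -0.47 with SE 0.108, adjusted p 0.0145). Abcc8, the sulfonylurea receptor SUR1 that joins it, had 53.8, 42.3 and 51.1 CPM in the Control mice against 33.0, 28.7 and 28.2 after TAF15 OE, and fell 1.64-fold (log2 change -0.71 with SE 0.108, adjusted p 0.00221). The vascular pair of the same channel type, Kcnj8 (Kir6.1) and Abcc9 (SUR2), did not pass: their log2 changes were 0.65 (SE 0.266, adjusted p 0.129) and 0.51 (SE 0.161, adjusted p 0.0521). Kcnj8 overlapped between groups, and Abcc9, chosen after its values were seen, did not. Kcnj11 was not called without Control 1 (0.0562) or TAF15 OE 2 (0.0621), and Kcnj8 was called without both Control 1 and TAF15 OE 1 (0.0170, log2 change 1.02).

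Calls were made for 2 of 10 tested K2P genes and 1 of 8 calcium- or sodium-activated genes. Of all tested genes 15.3% were called, and groups this small cannot show a difference from that share. Kcnk4 (TRAAK), a neuronal leak channel opened by membrane stretch and lipids, fell furthest of all called channel genes, from 11.6, 10.7 and 10.1 CPM to 7.33, 5.51 and 5.15. This was a 1.80-fold fall (log2 change -0.85 with SE 0.171, adjusted p 0.00815). Kcnk13 (THIK-1), a leak channel of microglia, had 8.54, 7.88 and 6.65 CPM in the Control mice against 12.9, 10.7 and 9.69 after TAF15 OE, and rose by 0.53 in log2 (SE 0.163, adjusted p 0.0492). Kcnk6 (TWIK-2), a leak channel of macrophages and vessels chosen after its values were seen, had 6.58, 6.42 and 5.72 CPM against 20.3, 8.79 and 10.5. TAF15 OE 1 stood far above the other libraries, and the log2 change of 1.08 (SE 0.307) did not pass (adjusted p 0.0524). Kcnk1 (TWIK-1), the most abundant K2P gene and common in astrocytes, was at 32.0 ± 0.844 FPKM in Control against 36.6 ± 2.57 with TAF15 OE and was not called (log2 change 0.15, adjusted p 0.220). Kcnk13 was not called when any library was left out (0.0569 to 0.169), with DESeq2 size factors (0.0611), DESeq2 (0.0749) or limma-voom (0.0562), or without both Control 1 and TAF15 OE 1 (0.111). Kcnk6 was called with DESeq2 (0.00203), total counts (0.0391), no filter (8.62e-08) and the replicate block (0.00923). It was also called without TAF15 OE 1 (0.0380, log2 change 0.61), without TAF15 OE 2 (0.0228) and with Control 1 and TAF15 OE 1 both left out (0.0371).

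Kcnn4 (KCa3.1), the intermediate-conductance channel of lymphocytes, macrophages and activated microglia, had the largest fold change of the tested channel genes, at a very low level. Its counts were 9, 17 and 8 in Control 1 to 3 against 42, 27 and 68 in TAF15 OE 1 to 3, or 0.146 ± 0.0644 FPKM against 0.568 ± 0.240. It rose 3.76-fold (log2 change 1.91 with SE 0.410, adjusted p 0.0110), and by 0.44 on the log2(FPKM + 1) scale, which understates the change of low genes. Kcnma1, the large-conductance BK pore, had 254, 235 and 245 CPM in the Control mice against 242, 237 and 241 after TAF15 OE. Its log2 change was -0.03 (SE 0.0627, adjusted p 0.833), and its sign turned with total counts (0.02). Kcnn2, the small-conductance SK2 of CA1 dendrites and chosen after its values were seen, was at 59.2 ± 5.04 CPM in Control against 57.5 ± 1.59 with TAF15 OE (log2 change -0.04 with SE 0.0809, adjusted p 0.772).

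Members of the Kcne family, small single-span partners of Kv pores, included 1 call of 3 tested. Kcne1l had 4.68, 6.29 and 5.99 CPM in the Control mice against 10.3, 11.02 and 11.5 after TAF15 OE, with no overlap (a 1.94-fold rise, log2 change 0.95 with SE 0.161, adjusted p 0.00369). Kcne2 and the inward rectifier Kcnj13 (Kir7.1), both of the apical membrane of the choroid plexus, were far apart among the libraries of each group. Kcnj13 had 0.271, 9.07 and 8.84 CPM in the Control mice against 2.81, 12.1 and 11.5 after TAF15 OE, and Kcne2 1.29, 28.0 and 35.8 against 15.2, 32.6 and 35.02. Both were low in Control 1 and TAF15 OE 1, where the 9 choroid plexus markers summed to 344 and 2615 CPM, against 6697 to 7820.1 in the other 4 libraries. Neither was called (log2 changes 0.53, SE 1.14, adjusted p 0.815, and 0.35, SE 1.08, adjusted p 0.875). Without Control 1 their log2 changes turned to -0.03 and -0.21. Kcnj13 lies within Gigyf2 on the other strand, and reads of the overlap could not be told apart.

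Markers of the cell types that carry these channels moved with the groups as well. For scale, 9.32% of all tested genes were called higher and 5.95% lower. The 10 astrocyte markers summed to 5031 to 6265 CPM over the Control mice against 8673 to 9512 over the TAF15 OE mice, and 7 of 10 rose (median log2 change 0.53, beside 0.51 for Kcnj10). Gfap alone went from 564 to 690 CPM (lowest and highest Control) to 2489 to 2710 CPM with TAF15 OE. Without Gfap, left out after the values were seen, the other 9 summed to 4438 to 5575 CPM and 6121 to 6802 CPM. The 15 microglia markers summed to 733 to 775 CPM over the Control mice against 1471 to 2412 over the TAF15 OE mice, highest in TAF15 OE 1, with 13 of 15 higher (median 1.20). Other lists bear on Cntn2, Kcnj8, Abcc9 and Kcnn4. Here 8 of 10 oligodendrocyte markers rose (median 0.46), as did 4 of 7 tested pericyte and smooth muscle markers (median 0.51). So did 2 of 8 endothelial markers (median 0.49) and 4 of 6 tested B and plasma cell markers (median 2.41). The pericyte and smooth muscle list holds Abcc9 itself, whose own change is that median, so list and gene are not independent. The B and plasma cell sums were 31.6 to 111 CPM in Control and 367 to 636 CPM with TAF15 OE. T cell markers, 6 of 7 tested higher, summed to 6.95 to 7.58 CPM over the Control mice against 13.9 to 35.2 over the TAF15 OE mice. The 20 presynaptic release genes, markers of neuronal content, summed to 14701 to 15839 CPM over the Control mice against 12006.5 to 12798 over the TAF15 OE mice, and 15 fell (median -0.29, beside -0.05 for the 78 tested channel genes). For the 9 excitatory neuron markers the sums were 9026 to 10888 CPM over the Control mice against 6155 to 7654 over the TAF15 OE mice, with 6 lower (median -0.55). The subfield lists had smaller median changes. Called lower were 2 of 8 for CA1 (median -0.24), 3 of 8 for dentate granule (median -0.11) and 0 of 7 for CA3 (median -0.13). Single members fell further than any excitatory neuron marker (Neurod6 furthest, -0.64). These were the dentate markers Tdo2 (-1.18), Dsp (-1.17) and Lct (-0.98) and, of CA1, Pou3f1 (-0.85). In the same lists 3 CA1 and 2 dentate markers had positive changes, none of them called. The interneuron markers fell in 3 of 10 (median -0.14): Pvalb (-0.48), Sst (-0.38) and Cck (-0.58). Of the 10, 3 had positive changes that were not called. In bulk tissue, fewer cells of a type and less RNA per cell cannot be told apart, and the part of these shifts in the channel calls was not tested.

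**Figure D4:**
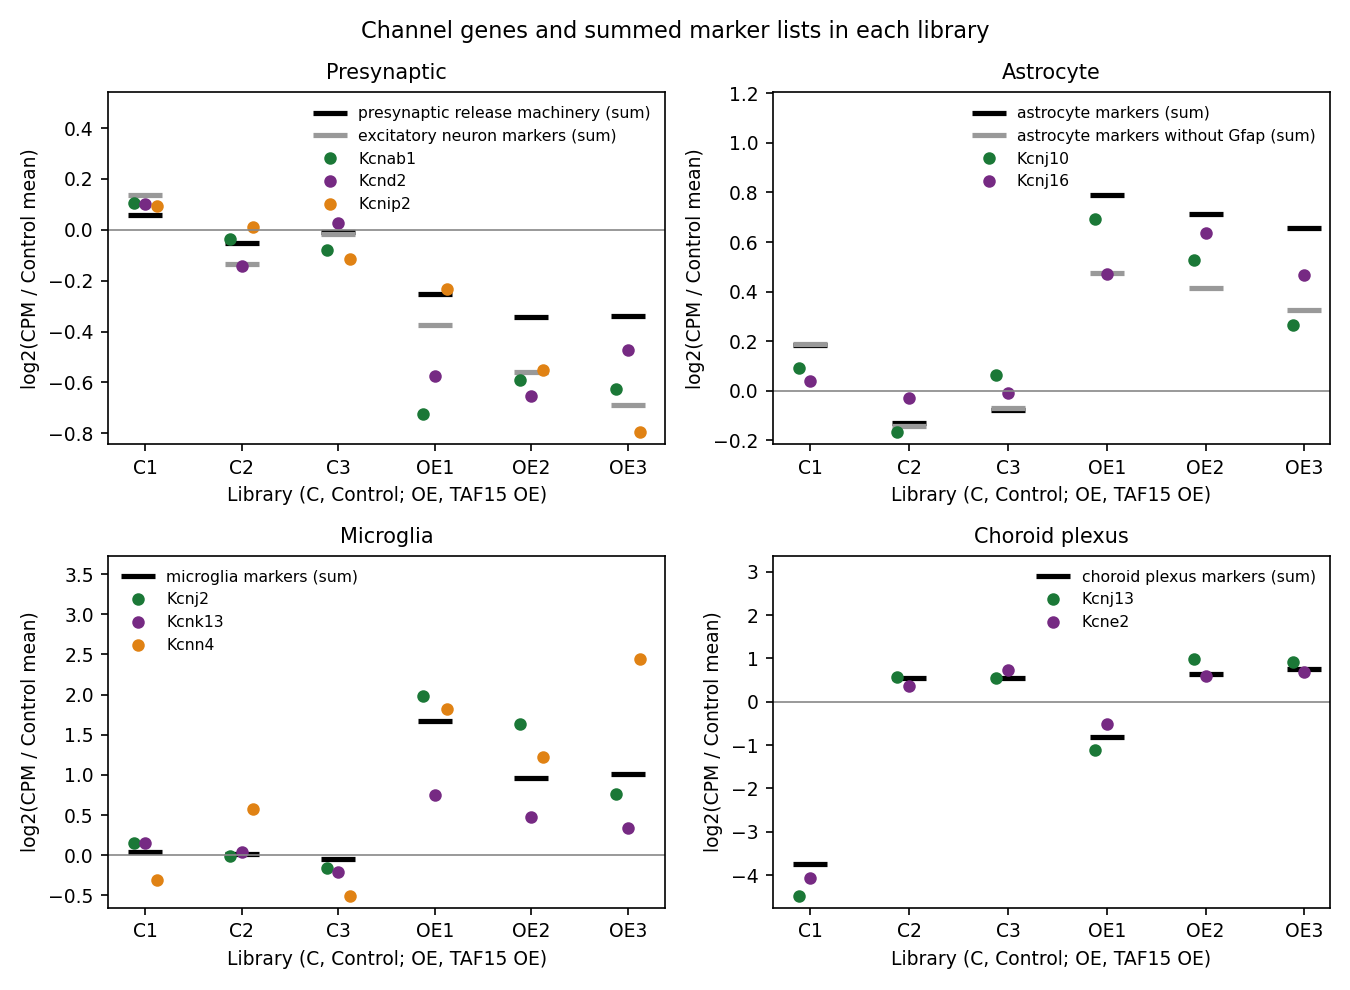
Channel genes (coloured points) and summed marker lists (black and grey bars) in each library, as log2 of the ratio of CPM to the mean of the 3 Control libraries, in 4 panels with separate scales. In every TAF15 OE library Kcnab1, Kcnd2 and the presynaptic and excitatory sums lie below 0, and Kcnj10, Kcnj16 and the astrocyte sums, with and without Gfap, lie above 0; Kcnj13 and Kcne2 drop with the choroid plexus sum in Control 1 and TAF15 OE 1.

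Potassium handling genes without the Kcn name gave 14 calls of 34 tested, 4 higher and 10 lower. Over all tested genes, 15.3% were called, 9.32% higher and 5.95% lower. Of 19 tested partner proteins, 7 fell (36.8%) and 1 rose (5.26%). The falls, beside Dpp6 and Abcc8, were Lgi1 (-0.45), a secreted protein that slows Kv1 inactivation, the Kv1 clustering protein gene Cntnap2 (-0.35), the scaffolds Dlg2 (-0.32) and Dlg4 (-0.34) and the kinase anchor Akap5 (-0.35). Cntn2, a Cntnap2 partner also made by oligodendrocytes, rose by 0.26. Of the 4 HCN genes, the cation channels that open on hyperpolarisation and carry potassium and sodium, edgeR, DESeq2 and limma-voom called 0, and 0 had an unadjusted p below 0.05 in edgeR.

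Of 11 tested pump and cotransporter genes, 3 rose and 3 fell (27.3% each), beside 9.32% and 5.95% of all tested genes. Atp1b2, a glial pump subunit, rose by 0.38 in log2 (SE 0.0783, adjusted p 0.00906). Slc12a5, the neuronal chloride exporter KCC2, had 661, 622 and 650.4 CPM against 469, 457 and 507 (log2 change -0.43 with SE 0.0684, adjusted p 0.00277). Atp1b3 rose (0.32) and Atp1b1 fell (-0.27). The partner, pump and cotransporter genes named here were chosen after their values were seen. Dpp6, Abcc8, Lgi1, Atp1b2 and Slc12a5 were called under all 16 alternatives. Single libraries ended calls of the other named genes except Cntnap2: without Control 1, those of Cntn2 (0.107), Dlg2 (0.0670), Dlg4 (0.0546), Akap5 (0.0613), Atp1b1 (0.0527) and Atp1b3 (0.103), without Control 2 those of Cntn2 (0.101) and Atp1b1 (0.0637), and without Control 3 those of Dlg2 (0.0670), Atp1b1 (0.0510) and Atp1b3 (0.0754). Without TAF15 OE 1 Cntn2 was lost (0.0990), without TAF15 OE 2 Cntn2 (0.146), Dlg2 (0.0780), Dlg4 (0.0665), Akap5 (0.0528), Atp1b1 (0.0783) and Atp1b3 (0.117), and without TAF15 OE 3 Dlg4 (0.0556), Atp1b1 (0.0603) and Atp1b3 (0.0985). Without both Control 1 and TAF15 OE 1, Cntn2 (0.187) and Akap5 (0.0557) were not called, Cntn2 was not with DESeq2 size factors (0.0514), and Cntnap2 (0.0522 and 0.0514) and Akap5 (0.0664 and 0.0655) were not on FPKM.

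In the authors' deposited table, 22 of the channel genes had an adjusted p below 0.05, 6 higher and 16 lower. Of these, 18 are among the 21 called here. That table marks 3 channel genes as significant, Kcnj2, Kcnk6 and Kcnn4, with authors' fold changes of 2.86, 2.08 and 3.70. In the same authors' deposited table Kcnip3, Kcna6 and Kcnk13, which rose here, had adjusted p of 0.0974, 0.0892 and 0.0898.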

How the data were processed

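Hippocampal RNA of 3 Control and 3 TAF15 OE mice was sequenced, and each library's group and replicate number follow its title. The submitters' processing notes name CASAVA, Bowtie2 2.2.3, HISAT2 2.1.0, TopHat2 and the build GRCm38. The counting program, annotation and strand setting were not given in any source used. Raw read counts for each Ensembl gene were deposited in a table of their own. The authors also deposited FPKM (counts relative to gene length and depth). Their comparison table, as deposited, gives counts, a mean normalised signal, the fold ratio, its log2 value, the p-value and the adjusted p-value, from a test that its header does not name.

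The deposited counts were fitted with edgeR 4.0.16 in R 4.3.3 (filterByExpr with a minimum count of 10 and a minimum total of 15, TMM scaling, robust quasi-likelihood fit on group, Benjamini-Hochberg over 16758 genes). Standard errors are the log2 change divided by the root of the F statistic. Gene symbols, types and coordinates are those of the authors' table. Alternatives in scaling and filter were DESeq2 size factors, total counts, no filter, and a filter at a mean of 1 CPM (here without the TMM factor). Alternatives in the test were DESeq2 1.42.0, limma-voom (limma 3.58.1), limma on log2(FPKM + 1) or log2(FPKM + 0.1), and a block for the replicate number. Each library was also left out, as was Control 1 together with TAF15 OE 1. The fit was tested on simulated counts. No pair of libraries agreed within sampling noise (smallest chi-square per degree of freedom 5.18). The rule for named genes took every called Kcn gene, the most abundant gene of each channel group and 11 cell type or reference genes. The members, lists and alternatives were chosen with earlier results of these data known. Some genes that the rule names are not reported here and are not drawn. Figures were drawn with matplotlib 3.10.9.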

Additional observations from a re-analysis of the deposited data

How the results depend on the processing

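Of the 21 calls among the potassium channel genes, 6 (Kcnab1, Kcnd2, Kcne1l, Kcnj16, Kcnk4 and Kcnn4) held under all 16 alternatives, and 0 of the 21 changed direction. With single libraries left out, the number of channel genes called ran from 9 to 19, of genes higher from 3 to 7 and of genes lower from 5 to 13, beside 21, 8 and 13 with all libraries. The partner and transport genes gave 8 to 15 calls then, 2 to 4 higher and 6 to 11 lower, beside 14, 4 and 10. DESeq2 size factors gave 5 channel genes higher, and FPKM with a pseudocount of 1 or 0.1 gave 8 lower. Under the other settings the counts stayed within 1.5 times. Among genes not called, the log2 change of Kcnma1 turned to 0.021 with total counts, 0.020 with FPKM + 1 and 0.021 with FPKM + 0.1. With single libraries left out, that of Kcnj13 ran from -0.031 (without Control 1) to 0.939 and that of Kcne2 from -0.209 (without Control 1) to 0.910. Over all 16 alternatives they reached 1.32 (limma-voom) and 1.24 (FPKM + 0.1). Same-numbered libraries were correlated in their deviations from the group means at 0.126, 0.0776 and 0.0871, each library correlating best with its own number. With the replicate block, 26 channel genes were called (10 higher, 16 lower), 20 of them among the 21, and 18 partner and transport genes (6 higher, 12 lower). Of the 16 genes under the count filter, 0 were called with edgeR without a filter; their low counts and 3 libraries per group limit what small changes can be seen.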
